A study of Mus musculus with 20 samples.

Results

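The fibrillar collagens of the vessel wall were followed as the transcripts of 7 genes, Col1a1, Col1a2, Col3a1, Col5a1, Col5a2, Col5a3 and Col27a1, among the 54532 genes of the count table. They were taken by symbol as the chains of collagen types I, III, V and XXVII, with earlier results of these data known. All 7 passed the filter on low counts that left 15543 genes for testing. The libraries held RNA of thoracic aorta of C57BL/6J mice, cut as descending or ascending aorta, after 1 week with β-aminopropionitrile (BAPN) or water. The groups were descending aorta with BAPN, descending aorta with water, ascending aorta with BAPN and ascending aorta with water, with 5 libraries each. All groups share the strain and the week of treatment, and the labels name no transgene. Age, sex, dose and route are not given in the sources used here, and the tissue is the whole wall segment, so fewer cells of a type and less RNA per cell cannot be told apart. Whether each library is a different animal is not stated in the labels, and the p-values cover only the spread among these samples, which may be technical.

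Fibrillar collagens are secreted as triple-helical procollagens, trimmed by proteases outside the cell and packed into staggered fibrils that lysyl oxidases cross-link. BAPN blocks lysyl oxidases, so the cross-links of collagen and elastin fail to form. In the aorta, type I and type III collagen carry the load at high pressure, type V starts the fibrils and limits their width, and type XXVII, known mainly from cartilage, forms thin fibrils without banding.

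Total counts ran from 15.7 M to 23.3 M per library, and the 7 genes together took 2.77% to 3.28% of the counts in descending BAPN libraries, 3.10% to 3.38% in descending water, 1.996% to 2.27% in ascending BAPN and 2.37% to 2.53% in ascending water. The libraries also fell into sets that the labels do not name, split at the largest gap (1.73, against 0.506 for the next) along a principal component of 33 pseudogenes. A set with higher pseudogene levels held all 5 ascending BAPN libraries, ascending water 4 and 5 and descending water 1, 2 and 5. The lower set held all 5 descending BAPN libraries, descending water 3 and 4 and ascending water 1, 2 and 3. Values within a set are given beside the results they touch. The smooth muscle markers fixed for the aorta (Acta2, Myh11, Tagln, Cnn1, Smtn, Myocd and Lmod1) were all detected in every group, with summed levels of 18828 to 24951 CPM, the usual unit of counts scaled to library size.

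Levels between genes were compared per kilobase of merged exons (CPM per kb). Col3a1, whose 3 identical chains make type III collagen, stood highest in all 4 groups, at 1227 (SD 81.3) in descending BAPN, 1376 (SD 54.7) in descending water, 898 (SD 36.4) in ascending BAPN and 1085 (SD 36.6) CPM per kb in ascending water (n = 5 each). Col1a1, the main chain of type I collagen, followed at 1161 (SD 94.1), 1165 (SD 87.5), 626 (SD 43.2) and 727 (SD 23.9) CPM per kb in the same order of groups. In descending BAPN libraries the spreads of Col3a1 and Col1a1 overlapped, although the ratio of Col3a1 to Col1a1 was above 1 in each library. Col1a2, the other type I chain, had 727 (SD 36.9), 782 (SD 40.8), 470.1 (SD 17.1) and 534 (SD 11.96) CPM per kb. The order of the type I chains depends on the length used, since the merged exons of Col1a2 (12426 bases) are longer than its longest transcript (5348 bases). Per kb of longest transcript Col1a2 was above Col1a1 in all 4 groups, at 1688 against 1285 in descending BAPN and 1241 against 804 in ascending water.

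The type V chains were far lower. Col5a1, present in nearly all type V molecules, had 142 (SD 8.21), 137 (SD 12.6), 97.8 (SD 2.24) and 106 (SD 5.59) CPM per kb of merged exons in descending BAPN, descending water, ascending BAPN and ascending water. Col5a2, its usual partner, had 91.9 (SD 3.44), 94.3 (SD 4.202), 82.1 (SD 2.90) and 89.6 (SD 2.22). Col5a3, a minor type V chain, had 5.26 (SD 0.936), 5.19 (SD 0.526), 3.73 (SD 0.519) and 4.45 (SD 0.178), and Col27a1 had 2.96 (SD 0.373), 3.66 (SD 0.178), 2.87 (SD 0.186) and 3.93 (SD 0.284). The order of these pairs also depends on the length: per kb of longest transcript Col5a2 was above Col5a1 in both ascending groups, and Col27a1 was above Col5a3 in descending water and in both ascending groups, and below it in descending BAPN.

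**Figure D1:**
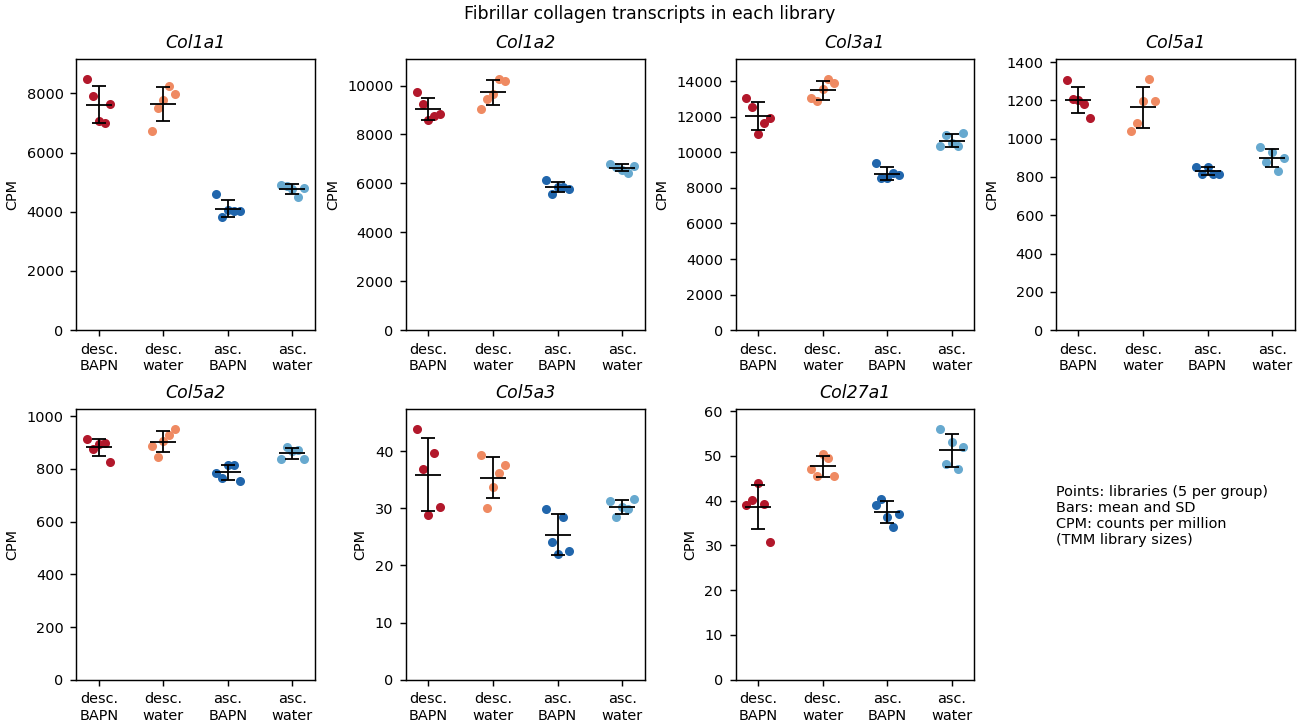
Level of each of the 7 genes (CPM, vertical axis, from 0) in every library, by region and treatment; points are libraries and bars are the mean and SD of 5. Col1a1 stood at 6994 to 8484 CPM in descending BAPN and at 3827 to 4587 CPM in ascending BAPN, while Col27a1 was at 34.1 to 40.4 CPM in ascending BAPN against 47.0 to 56.1 CPM in ascending water.

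Coordinates are those of the GENCODE annotation on GRCm38. Col1a1 (ENSMUSG00000001506) spans chr11:94936224-94953042 on the plus strand, Col1a2 (ENSMUSG00000029661) chr6:4504814-4541544 on the plus strand and Col3a1 (ENSMUSG00000026043) chr1:45311538-45349706 on the plus strand. Col5a2 (ENSMUSG00000026042) lies beside Col3a1 at chr1:45374321-45503282 on the minus strand. Col5a1 (ENSMUSG00000026837) is at chr2:27886425-28039514 on the plus strand, Col5a3 (ENSMUSG00000004098) at chr9:20770050-20815067 on the minus strand and Col27a1 (ENSMUSG00000045672) at chr4:63214004-63334991 on the plus strand. The strand setting of the counting is not given in the sources used here. Exons of Col5a1 share 99 and 113 bases with the opposite-strand genes 2810430I11Rik and Gm13372, whose counts over all libraries were 1066 and 866 against 376924 for Col5a1. Exons of Col3a1 share 141 bases with the same-strand miRNA gene Gm47302, which had 0 counts against 4150045 for Col3a1. How reads over shared bases were counted is not given in the sources used here, so the part of reads affected is uncertain.

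RefSeq promoter tables on GRCm38.p6 matched 5 of the 7 genes (Col1a2, Col3a1, Col5a1, Col5a3 and Col27a1). The 250 bases before the RefSeq start are shown for 3 genes that were called lower under BAPN in ascending aorta (Col1a2, Col3a1 and Col27a1) and for Col5a1, which was not. For Col1a2 and Col27a1 the RefSeq start lies downstream of the GENCODE gene start, so their windows fall inside the spans given above. Capitals mark, on either strand, CCAAT (the letters bound by the CCAAT factor NF-Y), GGGCGG (the GC box of Sp1-type factors, printed as CCGCCC when on the other strand) and TATAAA.
Col1a2, chr6:4505368-4505617, plus strand: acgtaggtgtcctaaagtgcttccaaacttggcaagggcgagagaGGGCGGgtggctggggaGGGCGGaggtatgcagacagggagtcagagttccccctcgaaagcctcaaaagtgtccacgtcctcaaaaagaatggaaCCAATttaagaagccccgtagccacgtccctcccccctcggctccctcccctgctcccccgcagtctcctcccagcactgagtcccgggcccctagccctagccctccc
Col3a1, chr1:45311288-45311537, plus strand: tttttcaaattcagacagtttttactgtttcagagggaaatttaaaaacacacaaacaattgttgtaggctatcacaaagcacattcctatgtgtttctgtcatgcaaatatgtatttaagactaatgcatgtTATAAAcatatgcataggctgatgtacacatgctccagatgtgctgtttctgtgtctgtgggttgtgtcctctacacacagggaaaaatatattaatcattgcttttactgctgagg
Col27a1, chr4:63215162-63215411, plus strand: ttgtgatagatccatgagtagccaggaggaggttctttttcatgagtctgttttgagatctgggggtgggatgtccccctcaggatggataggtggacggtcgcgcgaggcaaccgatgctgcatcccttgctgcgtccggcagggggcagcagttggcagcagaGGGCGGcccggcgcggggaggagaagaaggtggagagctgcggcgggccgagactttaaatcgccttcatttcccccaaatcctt
Col5a1, chr2:27886175-27886424, plus strand: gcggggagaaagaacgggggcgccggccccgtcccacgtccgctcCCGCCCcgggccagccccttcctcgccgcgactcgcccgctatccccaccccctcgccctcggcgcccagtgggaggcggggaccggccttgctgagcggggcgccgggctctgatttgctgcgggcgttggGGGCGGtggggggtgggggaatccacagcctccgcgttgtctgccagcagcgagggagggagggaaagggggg
The motifs searched do not overlap one another in these windows. Col1a2 held CCAAT once and the GC box 2 times, Col5a1 held the GC box 2 times and Col27a1 1 time, and Col3a1 held only TATAAA. Of 32851 promoters of this length, 33.8% held CCAAT, 32.7% the GC box and 12.4% TATAAA. The 4 windows ranged widely in base composition, with a G and C content of 76.4% for Col5a1, 62.0% for Col1a2, 59.6% for Col27a1 and 35.2% for Col3a1. A match is a description of letters and shows no binding.

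The miR-29 family is known in mouse heart and aorta to bind collagen transcripts. Its mature forms share a seed (bases 2 to 8, in capitals), and the matching letters TGGTGCT were searched in the 3′ untranslated region of the longest coding transcript of each gene.
miR-29a-3p: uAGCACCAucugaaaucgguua
miR-29b-3p: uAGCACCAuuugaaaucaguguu
miR-29c-3p: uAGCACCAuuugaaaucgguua
Col1a1, chr11:94952531-94952551, plus strand: gaatttcTGGTGCTatagaag
Col3a1, chr1:45348975-45348995, plus strand: gtctcaaTGGTGCTataataa
Col5a2, chr1:45374959-45374979, minus strand: ttaatgaTGGTGCTaaaatta
Col27a1, chr4:63333913-63333933, plus strand: aaatcgcTGGTGCTcacaatt
The seed match was present in 6 of the 7 genes: 4 times in Col5a1, 3 times in Col5a3, once in each gene shown, and 0 times in Col1a2. Of 20648 genes with a 3′ untranslated region, 11.8% held at least 1 match, and of the 7203 genes whose region was as long as those of the 7 (785 to 2498 bases) 13.5% did. Mature miRNAs were not analysed here, so the matches are a description of sequence.

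In ascending aorta, transcripts of type I, type III and type XXVII collagen were lower under BAPN than under water. The calls of the type I chains ended with the library set as a term in the model. Without this term, of the 7 genes 5 were called lower (Benjamini-Hochberg adjusted p under 0.05) and 0 higher. Over the 15543 genes tested 2.91% were called lower and 3.44% higher. With the term 2 of the 7 were called lower, Col3a1 and Col27a1. The median log2 difference of the 7 was -0.22, against -0.0051 over all genes tested. The groups did not overlap in 4 of the 7 genes (3.31% of all genes did not overlap in this direction). Among the 5 called genes Col5a2 fell by 8.39% and Col27a1 fell by 27.0%, the ends of the range.

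Col3a1 had 9406, 8537, 8539.8, 8846 and 8729 CPM in ascending BAPN libraries, against 10349.9, 10971, 10510.3, 10332 and 11099 CPM in ascending water libraries. Every BAPN library lay below every water library. The log2 difference was -0.27 (SE 0.04, adjusted p = 0.000236), so the level fell by 17.3%. Within the higher library set (5 BAPN and 2 water libraries) it was -0.28 (SE 0.04, adjusted p = 0.00301).

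Col1a2 had 6149, 5557, 5865, 5857 and 5779 CPM in ascending BAPN, against 6811, 6679.6, 6537, 6436 and 6713 CPM in ascending water. These groups did not overlap either, and the log2 difference was -0.18 (SE 0.04, adjusted p = 0.00634). Col1a1 had 4587, 3827, 4065, 4025 and 4037 CPM in ascending BAPN, against 4900.2, 4864, 4786, 4502 and 4796 CPM in ascending water. Here the first BAPN library lay above the lowest water library, and the log2 difference was -0.22 (SE 0.06, adjusted p = 0.0201). Within the higher set Col1a2 was called (-0.17, adjusted p = 0.0413) and Col1a1 was not (-0.18, adjusted p = 0.125). With the set as a term in the model neither was (Col1a2 -0.16, adjusted p = 0.0576; Col1a1 -0.16, adjusted p = 0.175). Leaving out ascending BAPN 2 also ended the call of Col1a1 (-0.19, adjusted p = 0.0687).

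Col27a1 had the widest estimated difference of the 7. Its levels were 39.0, 40.4, 36.4, 34.1 and 37.0 CPM in ascending BAPN, against 56.1, 48.1, 53.0, 47.0 and 51.9 CPM in ascending water. The groups did not overlap, and the log2 difference was -0.45 (SE 0.07, adjusted p = 0.000177). It was also called within the higher set (-0.40, SE 0.07, adjusted p = 0.00826). The 2 members that kept the call with the library set as a term were Col27a1 (-0.39, adjusted p = 0.00493) and Col3a1 (-0.26, adjusted p = 0.00278).

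Of the 3 type V chains 1 was called. Col5a2 was at 755 to 817 CPM in ascending BAPN against 837 to 883 CPM in ascending water, without overlap, and its log2 difference was -0.13 (SE 0.04, adjusted p = 0.0453). The call of Col5a2 ended when 1 of these 12 libraries was left out (ascending BAPN 1, 2 or 5, ascending water 1, 2, 3, 4 or 5, descending BAPN 2, 3 or 4, descending water 3; adjusted p = 0.0505 to 0.114) and within the higher set (-0.12, adjusted p = 0.208). Col5a1 was at 816 to 852 CPM in ascending BAPN against 833 to 955 CPM in ascending water and was not called (-0.12, SE 0.05, 95% interval -0.22 to -0.0064, adjusted p = 0.216). Col5a3 was at 22.0 to 29.8 CPM in ascending BAPN against 28.5 to 31.6 CPM in ascending water and was not called (-0.25, SE 0.10, interval -0.46 to -0.044, adjusted p = 0.148). The intervals of Col5a1 and Col5a3 lie below 0 before adjustment, so these values do not show equal levels.

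Smooth muscle and fibroblast markers were measured beside these differences. The summed level of the 7 smooth muscle markers was 21978 to 24380 CPM in ascending BAPN against 18828 to 20740 CPM in ascending water, with 2 of 7 called higher (Acta2 and Myocd). Their list median log2 difference was only 0.039, so the sum does not stand for a rise of every marker. The summed level of the 8 adventitial fibroblast markers was 2688 to 3132 CPM in ascending BAPN against 2943 to 3304 CPM in ascending water, with 0 of 8 called. The summed level of 7 cardiomyocyte markers was 581 to 1152 CPM in ascending BAPN against 382 to 933 CPM in ascending water, with 2 of 7 called higher (Tnnt2 and Actn2) and a list median log2 difference of 0.42. Neither Tnnt2 nor Actn2 was called with the library set as a term (adjusted p = 0.235 and 0.148) or within the higher set (adjusted p = 0.132 and 0.256). Tnnt2 was not called by DESeq2 either (adjusted p = 0.150). The part of cell type shares in the collagen differences was not tested.

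In descending aorta fewer of these transcripts passed the test. Col3a1 and Col27a1 were called lower, and 0 of the 7 higher, where 4.54% of 15543 genes were called lower and 6.18% higher. The split of all calls was 961 higher and 706 lower, and 706 higher and 874 lower under upper-quartile scaling. The groups did not overlap in 1 of the 7 genes (3.27% of all genes in this direction). The median log2 difference of the 7 was -0.036, against -0.00027 over all genes.

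Col27a1 had 39.1, 40.1, 43.9, 39.3 and 30.7 CPM in descending BAPN, against 47.0, 45.6, 50.5, 49.6 and 45.5 CPM in descending water. Each BAPN library lay below each water library. The log2 difference was -0.31 (SE 0.07, adjusted p = 0.00602), so the level fell by 19.1%. Col3a1 had 13058, 12569, 11006, 11651 and 11949 CPM in descending BAPN, against 13061, 12870.4, 13547, 14118 and 13926 CPM in descending water. The groups overlapped through the first BAPN library, and the log2 difference was -0.16 (SE 0.04, adjusted p = 0.0151). Col3a1 lost its call without descending BAPN 3 (-0.13, adjusted p = 0.0538) and in a fit of these 2 groups alone (-0.17, adjusted p = 0.0512). Within the lower set (5 BAPN and 2 water libraries) neither was called, at -0.38 (adjusted p = 0.0683) for Col27a1 and -0.21 (adjusted p = 0.149) for Col3a1. With the set as a term both were called, at -0.37 (adjusted p = 0.00529) for Col27a1 and -0.18 (adjusted p = 0.0296) for Col3a1.

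The type I chains did not pass in descending aorta. Col1a1 had 8484, 7901, 7066, 6994 and 7657 CPM in descending BAPN, against 6739, 7506, 7765, 8244 and 7971 CPM in descending water. The groups covered each other almost wholly, and the difference was -0.0046 on the log2 scale (95% interval -0.12 to 0.11, adjusted p = 0.978). Col1a2 had 9731, 9237, 8593, 8765 and 8815 CPM in descending BAPN, against 9046, 9449.5, 9667, 10259 and 10175 CPM in descending water. Its log2 difference was -0.11 (interval -0.19 to -0.022, adjusted p = 0.106). Col1a2 was called lower without descending BAPN 1 (adjusted p = 0.0405) or descending water 1 (adjusted p = 0.0457), under upper-quartile scaling (adjusted p = 0.0378) and by DESeq2 (adjusted p = 0.0473).

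Of the type V chains in descending aorta, Col5a1 was at 1109 to 1304 CPM in BAPN against 1040.3 to 1311 CPM in water (log2 0.045, interval -0.064 to 0.15). Col5a2 was at 828 to 912 CPM in BAPN against 847 to 953 CPM in water (-0.036, interval -0.11 to 0.042), and Col5a3 was at 28.8 to 43.9 CPM in BAPN against 30.1 to 39.3 CPM in water (0.018, interval -0.19 to 0.22). All 3 pairs of groups overlapped and none of the 3 was called. The smooth muscle marker sum was 22469 to 24951 CPM in descending BAPN against 18831 to 21432 CPM in descending water, with 2 of 7 called higher (Acta2 and Myocd) and a list median log2 difference of 0.098. The fibroblast marker sum was 2075 to 2605 CPM in descending BAPN against 2407 to 2547 CPM in descending water, with 1 of 8 called lower (Dpt). Their part in the differences was not tested.

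**Figure D2:**
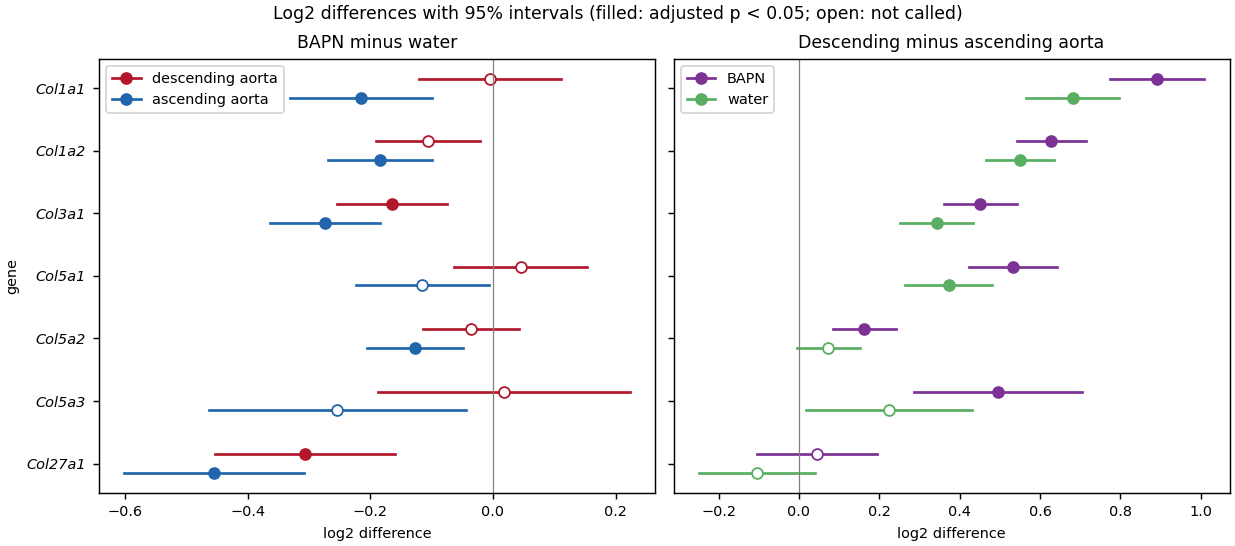
Log2 differences of the 7 genes with 95% intervals, for BAPN minus water in each region (left) and for descending minus ascending aorta under each treatment (right); filled points have an adjusted p under 0.05 and open points do not. Under BAPN, Col27a1 was lowest relative to water in both regions (-0.31 in descending and -0.45 in ascending aorta), and Col1a1 had the widest regional difference (0.89 under BAPN and 0.68 under water).

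Whether BAPN acted differently in the 2 regions was tested as the difference of the effects, descending minus ascending. With edgeR 0 of 15543 genes were called (0.0% of the genes tested), although 1070 had an unadjusted p under 0.05 (6.88%) and DESeq2 called 14. All 7 estimates were above 0, which means a smaller reduction or none in descending aorta, but 0 of the 7 passed. The estimate was 0.21 for Col1a1 (SE 0.08, interval 0.046 to 0.38, unadjusted p = 0.0141, adjusted p = 0.577) and 0.16 for Col5a1 (SE 0.07, interval 0.0065 to 0.31, unadjusted p = 0.0418, adjusted p = 0.7). The other 5 ran from 0.078 for Col1a2 to 0.27 for Col5a3, and their intervals all included 0. With the library set as a term the estimate of Col1a1 was 0.11 (SE 0.10) and that of Col5a1 -0.0037 (SE 0.08). The loss of a call in descending aorta is therefore not shown to be a regional difference in response.

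For Col1a1, Col1a2, Col3a1 and Col5a1 the estimated differences between regions were wider than those between treatments. In descending aorta under BAPN, 6 of the 7 genes were called higher than in ascending aorta under BAPN and 0 lower, where 14.2% of 15543 genes were called higher and 15.6% lower. Under water, 4 of the 7 were called higher and 0 lower, where 12.1% of genes were called higher and 15.2% lower. The groups did not overlap in 5 genes under BAPN (9.37% of all genes in this direction) and in 4 under water (8.37%). The medians of the 7 were 0.50 under BAPN and 0.34 under water, against 0.0088 and 0.0093 over all genes.

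Col1a1 showed the widest regional difference, with a mean of 7621 (SD 618) CPM in descending BAPN against 4108 (SD 284) CPM in ascending BAPN. It averaged 7645 (SD 574) CPM in descending water against 4769.6 (SD 157) CPM in ascending water. The log2 differences were 0.89 (SE 0.06, adjusted p = 2.33e-12) under BAPN and 0.68 (SE 0.06, adjusted p = 3.78e-10) under water, which is 1.86-fold and 1.60-fold. Col1a2 averaged 9028 (SD 459) CPM in descending BAPN against 5841 (SD 212) CPM in ascending BAPN, and 9719 (SD 507) CPM in descending water against 6636 (SD 149) CPM in ascending water. Its log2 differences were 0.63 (SE 0.04, adjusted p = 4.1e-12) under BAPN and 0.55 (SE 0.04, adjusted p = 5.22e-11) under water.

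Col3a1 differed less between the regions than the type I chains, at 0.45 (SE 0.04, adjusted p = 7.08e-09) under BAPN and 0.34 (SE 0.04, adjusted p = 7.51e-07) under water. Col5a1, in descending against ascending aorta, had 1304, 1209, 1204, 1183 and 1109 CPM against 852, 817, 850.4, 817 and 816 CPM under BAPN. Under water it had 1040.3, 1079, 1199, 1311 and 1195 CPM in descending against 955, 880.2, 933, 833 and 897 CPM in ascending aorta. No library of 1 region reached the other, with log2 differences of 0.53 (SE 0.05, adjusted p = 1.04e-08) under BAPN and 0.37 (SE 0.05, adjusted p = 3.56e-06) under water.

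Col5a2 was called under BAPN (0.16, SE 0.04, adjusted p = 0.00157) and not under water (0.073, interval -0.0056 to 0.15, adjusted p = 0.17). Col5a3 was likewise called under BAPN (0.50, SE 0.10, adjusted p = 0.000411) and not under water (0.22, interval 0.019 to 0.43, adjusted p = 0.101). Col5a3 under water was called without descending water 2 (0.28, adjusted p = 0.0484) and in a fit of these groups alone (adjusted p = 0.0203). Col27a1 was not called in either case, at 0.044 (interval -0.11 to 0.19, adjusted p = 0.709) under BAPN and -0.10 (interval -0.25 to 0.040, adjusted p = 0.298) under water. The regional calls under the 2 treatments were not compared other than by the difference of effects above.

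Under water the regional values held within each library set. Col1a1 was at 0.66 (adjusted p = 3.74e-05) in the higher set and 0.72 (adjusted p = 1.29e-06) in the lower set, and Col1a2, Col3a1 and Col5a1 were called in both. Under BAPN all descending libraries were in the lower set and all ascending libraries in the higher, so within a set region cannot be compared. With the set as a term Col1a1 was at 0.80 (SE 0.08, adjusted p = 1.62e-08) under BAPN, and 5 of the 7 genes were called. Col5a2 was then not called (0.14, adjusted p = 0.0803).

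Marker lists of other cell types also differed between the regions. The summed level of 7 cardiomyocyte markers was 15.3 to 21.0 CPM in descending BAPN and 16.3 to 21.7 CPM in descending water, against 581 to 1152 CPM in ascending BAPN and 382 to 933 CPM in ascending water. Mesothelial markers (4 genes) summed to 0.714 to 12.1 CPM in descending BAPN and 1.29 to 11.1 CPM in descending water, against 208 to 272 CPM in ascending BAPN and 199 to 369 CPM in ascending water. Cartilage markers (7 genes) summed to 49.9 to 61.8 CPM in descending BAPN and 44.7 to 56.4 CPM in descending water, against 88.8 to 123 CPM in ascending BAPN and 101 to 121 CPM in ascending water, with Matn1 at 0 counts in all but ascending water and Col2a1 at 0 in descending BAPN. Of 8 adventitial fibroblast markers, 1 was called higher and 4 lower in descending aorta under either treatment, and of 7 smooth muscle markers 0 were called. Of 6 adipocyte markers 2 were called higher in descending aorta under BAPN (list median 0.61) and 4 under water (list median 0.85), and 0 lower. Of 5 Schwann cell markers 4 were called lower under either treatment and 0 higher. The part of these cell types in the regional collagen differences was not tested.

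Collagen chains assemble in set proportions, so ratios between transcripts within a library were compared, which needs no scaling between libraries. Each ratio was taken per kb of merged exons, and 20 exact two-sided permutation tests (5 ratios in 4 comparisons, 5 against 5 libraries, smallest possible p = 0.00794) were adjusted together. The size of a ratio depends on the length used, so it is not a proportion of chains. Per kb of longest transcript Col1a2 to Col1a1 averaged 1.32 in descending BAPN and 1.54 in ascending water. Col5a2 to Col5a1 then averaged 1.22 in ascending water. Log2 differences between groups do not depend on the length. Of the 5 ratios 4 were lower in descending than in ascending aorta under both treatments, with no overlap of libraries. These were Col1a2 to Col1a1, Col3a1 to Col1a1, Col5a1 to Col1a1 and Col5a2 to Col5a1, and each reached the smallest p the exact test can give (adjusted p = 0.0176). Within the higher and lower sets under water the log2 ratio of Col3a1 to Col1a1 differed by -0.36 and -0.34, where so few libraries cannot reach an exact p below 0.2.

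The widest shift was that of Col3a1 to Col1a1. It was 1.03, 1.06, 1.04, 1.11 and 1.04 in descending BAPN and 1.296, 1.15, 1.17, 1.14 and 1.17 in descending water, against 1.37, 1.49, 1.40, 1.47 and 1.45 in ascending BAPN and 1.41, 1.51, 1.47, 1.53 and 1.55 in ascending water. Every descending library lay below every ascending library, and every descending BAPN library below every descending water library. The log2 difference for BAPN against water was -0.16 in descending aorta (exact permutation p = 0.00794, adjusted p = 0.0176) and -0.057 in ascending aorta (exact permutation p = 0.119, adjusted p = 0.193). Within the lower set it was -0.13 in descending aorta, where 5 against 2 libraries cannot reach an exact p below 0.0952. Whether the ratio's response differed between regions was not tested.

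Col1a2 to Col1a1 averaged 0.627 (SD 0.0243) in descending BAPN, 0.673 (SD 0.0215) in descending water, 0.752 (SD 0.0253) in ascending BAPN and 0.735 (SD 0.0132) in ascending water. BAPN against water gave -0.10 in descending aorta (exact permutation p = 0.0238, adjusted p = 0.0476), and the call ended without any of 9 of the 10 libraries, all except descending BAPN 4 (adjusted p = 0.0635 to 0.0866). In ascending aorta it gave 0.033 (exact permutation p = 0.206, adjusted p = 0.258), and 0.055 without ascending BAPN 1 (exact permutation, adjusted p = 0.0317). Col5a1 to Col1a1 in ascending aorta was 0.157 (SD 0.00813) with BAPN against 0.146 (SD 0.00478) with water, which did not pass adjustment (log2 0.10, exact permutation p = 0.0476, adjusted p = 0.0866). Without ascending BAPN 1 it did (0.13, exact permutation, adjusted p = 0.0317). Col5a2 to Col5a1 was 0.650 (SD 0.0208) in descending BAPN and 0.690 (SD 0.0470) in descending water, against 0.840 (SD 0.0285) in ascending BAPN and 0.848 (SD 0.0599) in ascending water. Col5a3 to Col5a1 was 0.0371 (SD 0.00523), 0.0381 (SD 0.00538), 0.0381 (SD 0.00517) and 0.0420 (SD 0.00214) in the same order and passed in no comparison. Its regional difference under water was called without descending water 1 (log2 -0.23, exact permutation, adjusted p = 0.0317).

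**Figure D3:**
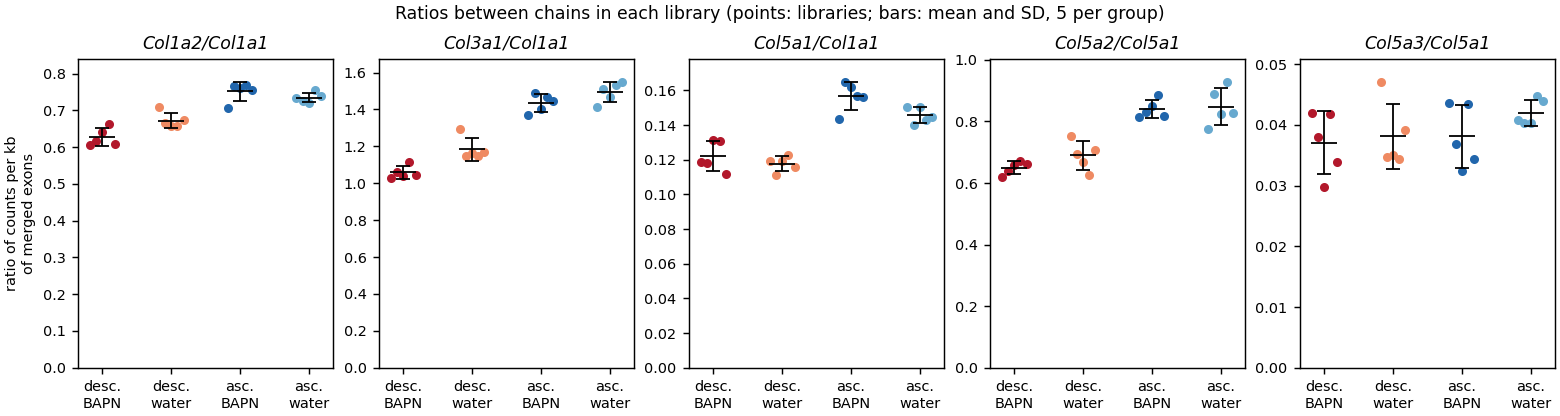
Ratios between chain transcripts per kb of merged exons (vertical axis, from 0) in every library, by region and treatment; points are libraries and bars are the mean and SD of 5. The ratio of Col3a1 to Col1a1 stood at 1.03 to 1.11 in descending BAPN and 1.14 to 1.296 in descending water, against 1.37 to 1.49 in ascending BAPN and 1.41 to 1.55 in ascending water.

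Beyond the group means, the libraries of a group varied together in some of these genes. Likeness was the Pearson r of the deviations of log2 CPM from the group means over the 20 libraries, among 10622 named protein-coding genes of at least 5 CPM, and is a description, since genes of a library share its depth, scaling and handling. The type I chains were each other's nearest genes (r = 0.94, Spearman rho = 0.92), and r was 0.93 after group and library set means were both removed. Col3a1 was at 0.82 with Col1a1 and 0.83 with Col1a2. For comparison, 95% of genes were below 0.44 with Col1a1. Over the 21 pairs of the 7 genes r ran from -0.091 to 0.94, with a median of 0.40. Col27a1 stood apart from the type I and III genes (0.024 with Col1a1, 0.075 with Col1a2 and -0.091 with Col3a1) and was at 0.531 with Col5a1. That value was not unusual, since 95% of genes were below 0.549 with Col5a1 and below 0.535 with Col27a1. After group and library set means were both removed it was 0.45.

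Besides each other, Col1a1 and Col1a2 were nearest to Adamts2 (0.83 and 0.87), and Col3a1 to Entpd2 (0.84), Col1a2 and Podn (0.83). Col5a1 was nearest to Col6a1 (0.91), Col6a2 (0.91) and Col15a1 (0.89), above any of the other 6 genes, of which Col1a2 was highest at 0.77. Its usual partner Col5a2 was nearest to Eif4g1 (0.87), Ptpn1 (0.81) and Nkx6-1 (0.80) and reached 0.49 with Col5a1. Col5a3 was nearest to Igdcc4 (0.76), Lamb1 (0.74) and Igfbp4 (0.74), and Col27a1 to Pald1 (0.87), Hdgfl2 (0.86) and Phb2 (0.85).

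**Figure D4:**
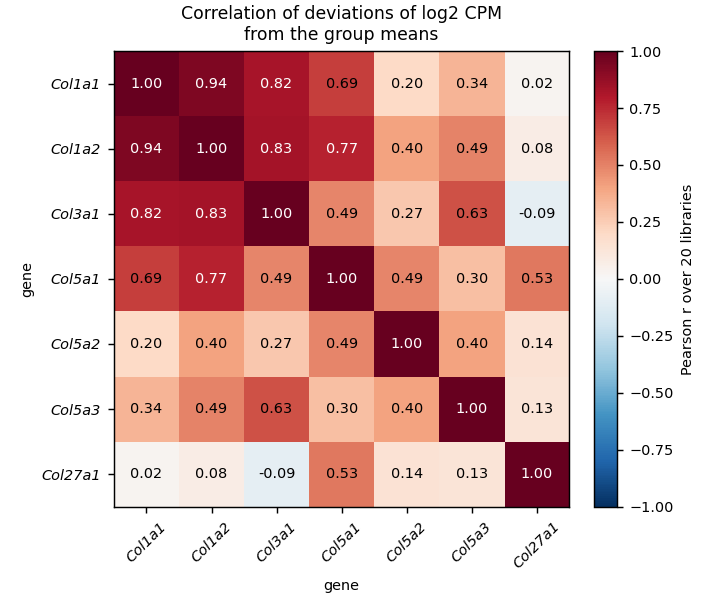
Pearson r between the 7 genes in deviations of log2 CPM from the group means over 20 libraries (colour scale from -1 to 1, genes on both axes). Col1a1, Col1a2 and Col3a1 form a block of 0.82 to 0.94, while Col27a1 is between -0.091 and 0.14 with every gene except Col5a1 (0.53).

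The other fibrillar chains were at low levels beside the type I and type III chains. The highest of them, Col11a2 in ascending water, lay between Col5a3 (mean 30.3 CPM) and Col27a1 (mean 51.2 CPM) there. Col11a2, a chain of type XI collagen, averaged 24.0 (SD 5.33) CPM in ascending BAPN against 39.3 (SD 5.04) CPM in ascending water, and fell by 0.71 on the log2 scale (SE 0.13, adjusted p = 0.00122). Within the higher set the call was lost (-0.58, adjusted p = 0.0762), and with the set as a term it was kept (-0.57, adjusted p = 0.0352). Col11a1 averaged 5.44 (SD 1.501) CPM in ascending BAPN against 7.92 (SD 1.58) CPM in ascending water and was not called (-0.54, SE 0.18, adjusted p = 0.0759). It was called without ascending BAPN 4 (-0.72, adjusted p = 0.0175), without ascending water 2 (-0.63, adjusted p = 0.0451), by DESeq2 (adjusted p = 0.0465), by limma-voom (adjusted p = 0.0363) and with no filter (adjusted p = 0.0345).

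In descending against ascending aorta Col11a2 was at -2.59 (SE 0.16) under BAPN and -2.94 (SE 0.15) under water, and Col11a1 at -1.44 (SE 0.21) and -2.27 (SE 0.21), all 4 called lower. Col2a1, the chain of type II collagen, had 0 counts in descending BAPN and 6 in descending water, against 497 in ascending BAPN and 615 in ascending water. The ascending BAPN libraries were uneven, with a median of 1.78 CPM and a highest library at 18.2 CPM. Ascending water had a median of 5.94 CPM, from 3.66 to 11.4 CPM. Col2a1 was called lower in descending aorta under either treatment, and was not called for BAPN against water in ascending aorta. Col24a1 had 7 counts in descending BAPN and 7 in descending water, against 21 in ascending BAPN and 58 in ascending water, and was too low to be tested.

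Lists of genes that make, trim, bind or degrade fibrillar collagen were set beside the 7 in ascending aorta under BAPN, where 3.44% of all genes were called higher and 2.91% lower. Of 16 tested collagens that are fibril-associated or form beaded filaments or networks, 0 were called higher and 4 lower, with Col16a1 at -0.34 (SE 0.09, adjusted p = 0.0157; not called without ascending water 3, adjusted p = 0.0541). Of 20 genes of chain folding and hydroxylation 0 were higher and 5 lower, with P3h3, a prolyl 3-hydroxylase family member, at 225 (SD 5.81) CPM in ascending BAPN against 267 (SD 3.39) CPM in ascending water (-0.25, SE 0.04, adjusted p = 0.000587). Of 7 genes of procollagen cleavage 0 were higher and 3 lower, with Bmp1, the C-proteinase, at 215 (SD 9.55) against 258 (SD 5.45) CPM (-0.26, SE 0.04, adjusted p = 7.78e-05). Of 14 partners of fibril assembly 0 were higher and 3 lower, with the collagen-binding Sparc at 9497 (SD 159) against 11845 (SD 425) CPM (-0.32, SE 0.04, adjusted p = 2.81e-06).

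Genes of collagen sensing and breakdown were mixed. Of 9 genes for collagen receptors and uptake 2 were higher and 2 lower in ascending BAPN, with the integrin chain Itgb1 at 0.17 (SE 0.04, adjusted p = 0.00557). Of 6 tested collagenases 1 was higher, the membrane-bound Mmp14, at 200.3 (SD 6.17) CPM in BAPN against 161 (SD 8.01) CPM in water (0.31, SE 0.06, adjusted p = 0.000834). Ctsk, the gene of cathepsin K, was the 1 lower, at 58.6 (SD 3.81) against 73.2 (SD 2.95) CPM (-0.32, SE 0.06, adjusted p = 0.000834). Of 28 regulators of collagen genes 0 were higher and 1 lower, near the share over all genes. The 1 lower was Prrx1, a mesenchymal homeobox factor, at -0.22 (SE 0.04, adjusted p = 0.00136). Within the higher set P3h3, Bmp1, Sparc, Itgb1, Mmp14 and Ctsk were called, and Col16a1 (-0.22, adjusted p = 0.0546) and Prrx1 (-0.20, adjusted p = 0.0525) were not. With the set as a term Prrx1 was called (-0.23, adjusted p = 0.00537) and Col16a1 was not (-0.20, adjusted p = 0.236). P3h3, Bmp1, Sparc, Itgb1, Mmp14 and Ctsk were also called with this term. Other genes in the list counts lost their calls with it: Col8a1, Col12a1, P3h1, Crtap, Adamts2, Pcolce, Bgn, Tnxb and Mrc2 (adjusted p = 0.0662 to 0.291). The list counts in ascending aorta therefore depend on whether this term is in the model. All ascending BAPN libraries were in the higher set, so lost precision and an effect of the set cannot be told apart here.

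The same lists were read in descending aorta under BAPN, where 6.18% of all genes were called higher and 4.54% lower, so that several of the counts lie near the share over all genes. Of the fibril-associated, beaded and network-forming collagens 0 of 16 were called. Folding and hydroxylation had 2 higher and 2 lower of 20, with P3h2, another prolyl 3-hydroxylase, at 0.61 (SE 0.09, adjusted p = 4.61e-05). Cleavage had 0 higher and 1 lower of 7, Bmp1, at 275 (SD 7.35) CPM in descending BAPN against 303 (SD 13.3) CPM in descending water (-0.14, SE 0.04, adjusted p = 0.0158), a call lost without descending water 3 (adjusted p = 0.0514). Assembly partners had 2 higher and 3 lower of 14, with Sparc at -0.17 (SE 0.04, adjusted p = 0.00304). Receptors had 3 higher and 1 lower of 9, with Itgb1 at 0.16 (SE 0.04, adjusted p = 0.00469), and collagenases 1 higher, Mmp14 at 0.45 (SE 0.06, adjusted p = 8.15e-06), and 0 lower of 6. Regulators had 3 higher and 2 lower of 28, with Prrx1 at -0.27 (SE 0.04, adjusted p = 7.94e-05). The difference of effects was called for 0 genes of these lists. Within the lower set P3h2, Sparc and Mmp14 were called, and Bmp1 (-0.20, adjusted p = 0.0618), Itgb1 (0.18, adjusted p = 0.122) and Prrx1 (-0.23, adjusted p = 0.0523) were not. With the set as a term all 3 were called, Bmp1 at -0.17 (adjusted p = 0.0157), Itgb1 at 0.17 (adjusted p = 0.0158) and Prrx1 at -0.25 (adjusted p = 0.00148). Other genes in the list counts lost their calls with this term: Plod2, Itga1 and Itga11 (adjusted p = 0.0694 to 0.0869). Within the lower set Plod2, Itga1, Itga11 and Fn1 were not called (adjusted p = 0.167 to 0.422).

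**Figure D5:**
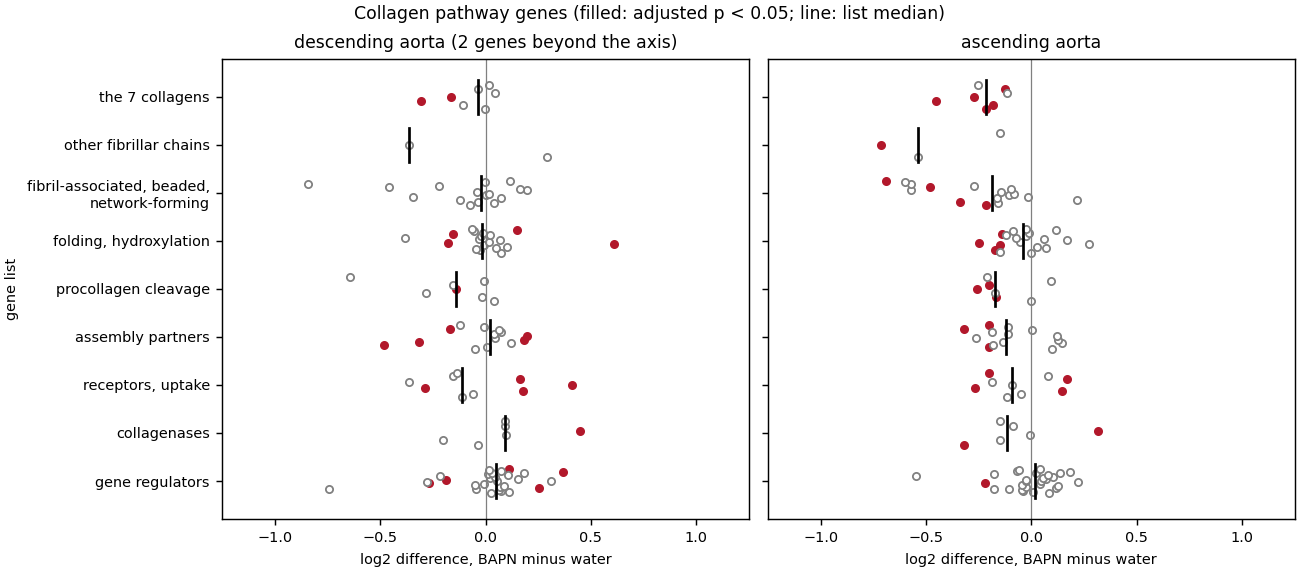
Log2 differences, BAPN minus water, of the 7 genes and of listed genes around them in descending (left) and ascending aorta (right); each point is a gene, filled where the adjusted p is under 0.05, and bars are list medians. The median of the 7 was -0.036 in descending and -0.22 in ascending aorta.

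Between regions, most genes of the folding machinery were also higher in descending aorta. Over all genes 14.2% were called higher and 15.6% lower under BAPN, and 12.1% higher and 15.2% lower under water. In descending against ascending aorta 14 of 20 folding and hydroxylation genes were called higher and 1 lower under BAPN, and 15 higher and 1 lower under water. The 1 lower was Colgalt2, a collagen galactosyltransferase, at 0.0935 (SD 0.0991) CPM in descending BAPN against 5.597 (SD 0.706) CPM in ascending BAPN. Under water the called genes with the smallest p after Colgalt2 were P4ha2, a prolyl 4-hydroxylase subunit, at 0.52 (SE 0.05) and Serpinh1, the collagen chaperone HSP47, at 0.39 (SE 0.04). Cleavage genes had 4 higher and 1 lower of 7 under BAPN and 3 higher and 1 lower under water, with the C-proteinase enhancer Pcolce2 at 0.66 (SE 0.04) and 0.75 (SE 0.04). Under BAPN the 2 regions were also in different library sets, and the list counts are without the set as a term. With this term Colgalt2 (-5.32, adjusted p = 1.10e-09) and Pcolce2 (0.70, adjusted p = 6.27e-09) were called under BAPN.

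Other lists were split between the regions, where 14.2% of all genes were called higher and 15.6% lower under BAPN, and 12.1% higher and 15.2% lower under water. Assembly partners had 6 higher and 6 lower of 14 under BAPN and 5 higher and 6 lower under water, with Fn1 (fibronectin) at 0.90 (SE 0.05) and 0.82 (SE 0.05), Sparc at 0.73 (SE 0.04) and 0.58 (SE 0.04), and the small proteoglycan gene Dcn at -0.86 (SE 0.05) and -0.83 (SE 0.05). Collagenases had 3 higher and 3 lower of 6 under either treatment, with Ctsk at 0.89 (SE 0.06) and 0.61 (SE 0.06) and Mmp2, a gelatinase, at -0.47 (SE 0.05) and -0.64 (SE 0.05). Of 28 regulators 5 were higher and 4 lower under BAPN and 1 higher and 5 lower under water, counts that under BAPN are near the shares over all genes, with Prrx1 at 0.54 (SE 0.04) and 0.59 (SE 0.04). Fibril-associated, beaded and network-forming collagens had 6 higher and 6 lower of 16 under BAPN and 3 higher and 6 lower under water, with Col6a3 at 0.71 (SE 0.05) and 0.61 (SE 0.05) and Col8a1, a network-forming chain, at -2.60 (SE 0.15) and -2.63 (SE 0.14). These list counts are also without the set as a term. With it Fn1, Sparc, Dcn, Ctsk, Mmp2, Prrx1, Col6a3 and Col8a1 were called under BAPN in the same directions.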

How the data were processed

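Each value the authors deposited is an unnormalised read count for a gene, made with fastp, STAR 2.5 and HTSeq 0.6.1 on mm10, per the submitters' processing notes; their settings and annotation are not given in the sources used here. The 20 per-library files equal the series table. Of 54532 gene identifiers 54409 matched the GENCODE annotation. Groups came from the titles and treatment labels, and the labels number replicates without saying what a number shares.

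Totals were 15.7 M to 23.3 M counts per library, with group means of 18.6 M (descending BAPN), 18.2 M (descending water), 17.3 M (ascending BAPN) and 19.7 M (ascending water). Genes were kept by filterByExpr (minimum count 10, minimum total 15), scaled by trimmed means of M values and tested in 1 quasi-likelihood model over all 20 libraries (edgeR 4.0.16, R 4.3.3, 16 residual degrees of freedom), adjusted by Benjamini-Hochberg within each comparison and called under 0.05. Ratios were tested by exact permutation (scipy 1.17.1). The steps were tested on simulated counts.

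Alternatives were other scalings and filters, DESeq2 1.42.0, limma-voom (limma 3.58.1), fits of 2 groups alone, a block on replicate number, the library set as a term or as a subset, and leaving out each library. The members and lists were chosen with earlier results of these data known. Named were all 7 genes in every comparison, the other fibrillar chains, the called genes of each list that had the lowest p-values, and the 3 genes most like each member.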

Additional observations from a re-analysis of the deposited data

Results flagged for a closer look

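In 48 checks of a group of 5 libraries (the CPM of the 7 genes and the 5 ratios), 3 values lay far from the rest of their group, by a gap of more than 0.71 of the group's range. Chance flags about 1 in 20 such groups. Col1a1 in ascending water 4 was 4502 CPM, below the other 4 libraries of the group (4786 to 4900.2 CPM). The ratio of Col1a2 to Col1a1 in ascending BAPN 1 was 0.708, below the other 4 (0.756 to 0.769), and without that library the ratio was called higher under BAPN than under water in ascending aorta. The ratio of Col3a1 to Col1a1 in descending water 1 was 1.296, above the other 4 (1.14 to 1.17).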

How the results depend on the processing

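Without any 1 library, 6 members were called in descending against ascending aorta under BAPN and 4 to 5 under water, 3 to 5 members were called for BAPN against water in ascending and 1 to 3 in descending aorta, and 0 for the difference of effects; over all genes these counts were 4267 to 4704, 3825 to 4448, 719 to 1094, 1240 to 1684 and 0 to 16. In ascending aorta the library set as a term gave 542 genes and 2 members for BAPN against water, and the higher set alone 483 and 3. In descending aorta the lower set alone gave 430 genes and 0 members, and the 2 groups alone 1 member. The set term gave 2755 genes for region under BAPN, and under water region gave 2537 within the higher and 2601 within the lower set. The difference of effects called 41 genes without a filter and 14 by DESeq2.

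Estimates near 0 changed sign. For BAPN against water in descending aorta, Col5a3 was at -0.0078 with upper-quartile factors and -0.00016 by limma-voom, and between -0.066 and 0.086 without 1 library. Col5a1 was at -0.035 with the set term and -0.068 within the lower set, and Col1a1 between -0.047 and 0.025 without 1 library. Col27a1 between regions under BAPN was at -0.058 with the set term and between -0.0066 and 0.12 without 1 library, and the difference of effects of Col5a1 was -0.0037 with the set term. The log2 ratio of Col5a2 to Col5a1 for BAPN against water was 0.0050 within the lower set in descending aorta, and in ascending aorta between -0.044 and 0.020 without 1 library. That of Col5a3 to Col5a1 was 0.083 within the lower set in descending aorta and between -0.088 and 0.039 there without 1 library, and between regions under BAPN from -0.097 to 0.035. The cause was not tested.

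The replicate numbers did not meet the rule for pairing (every pair above 0.1): of 30 same-numbered pairs 4 had a correlation of deviations above 0.1 (range -0.060 to 0.17), and in 11 of them the same number gave the highest correlation. These 11 include all 5 pairs of descending with ascending aorta under BAPN (0.064 to 0.11), a hint from the data and not from the labels. With the replicate number as a block 1125, 1762, 4733 and 4387 genes were called for BAPN in ascending and descending aorta and for region under BAPN and water, and Col5a3 was called in ascending aorta under BAPN (-0.26, adjusted p = 0.0467) and between regions under water (0.22, adjusted p = 0.0413). At this depth Col24a1 was too low to be tested.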
